A study of Mus musculus with 6 samples.

Results

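Hox genes are the homeobox genes of the 4 Hox clusters A to D, and they form the positional code of the trunk. All probe sets annotated with exactly 1 gene symbol of the form Hox, a cluster letter and a paralogue number were taken, which gave 48 of the 45101 probe sets on the array and 33 of the 39 Hox genes in the RefSeq gene table. They were measured in the stellate ganglia, the sympathetic ganglia beside the lowest neck and upper chest vertebrae that supply the heart, of male C57/Bl6 mice. RNA from both ganglia of a single mouse, copied from its 3′ end and labelled, was hybridised to each Affymetrix Mouse Genome 430 2.0 array. There were 3 arrays from mice 8 weeks after transverse aortic constriction (TAC), which narrows the aorta and loads the left ventricle with pressure, and 3 arrays from mice 8 weeks after a sham operation. No transgene, deletion or drug is named for either group, and the sources used here give no ages. The arrays carry the letters A, B and C within each group.

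The genes of a Hox cluster are switched on in the embryo in the order in which they lie on the chromosome. Genes with low paralogue numbers, at the 3′ end of a cluster, reach furthest towards the head, and genes with high paralogue numbers, at the 5′ end, are restricted to the trunk and tail. The combination of Hox proteins that a cell keeps marks its level along the body axis, and Polycomb and Trithorax proteins hold the silent and active parts of each cluster in place. Hox proteins bind DNA together with homeodomain cofactors of the TALE class, named Pbx, Meis and Pknox. Much of what is known of the code in neurons comes from spinal motor neurons, in which Hoxc6 and Hoxc8 mark forelimb level and Hoxc9 marks chest level. A ganglion is a mixture of neurons, glia, connective tissue and vessels, so fewer cells of a type and less RNA per cell cannot be told apart in these arrays.

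All values are log2 of the deposited GCRMA intensities, and a probe set counted as measured at a mean of 4 or more over the 6 arrays. The probes of different sets bind with different strength, so the floor is a common cutoff and does not rank transcript amounts between genes. Differences between TAC and sham are taken between arrays of the same probe set. The arrays correlated at 0.980 to 0.994 over the 17550 measured probe sets, and the median linear intensity of all probe sets was 7.81 to 7.84 on TAC arrays and 7.96 to 8.44 on sham arrays. Markers of the labelled tissue were present: all 14 sympathetic neuron genes of the marker list with a probe set were measured, including Th and Dbh, the enzymes of noradrenaline synthesis. Of 6 spinal cord markers with a probe set 0 were measured. Of 6 dorsal root ganglion genes with a probe set Avil alone was, and it was bright, at 11.97 to 12.17 over the 6 arrays. Scn10a, Trpv1 and Pou4f1 lay under the floor. Skeletal muscle and fat transcripts differed between arrays of the same group, and those values stand beside the Hox results that they touch.

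The Hox probe sets above the floor were all of genes with paralogue numbers 4 to 8. Of the 48 Hox probe sets, 9 were measured, or 18.8%, against 39.0% of the 45037 probe sets that are not controls. They belonged to 6 genes, Hoxa5, Hoxc4, Hoxc5, Hoxc6, Hoxc8 and Hoxd8. All 9 lay at or above 4 on each of the 6 arrays.

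By paralogue number, 0 of 11 probe sets were measured for groups 1 to 3, 9 of 20 for groups 4 to 8, and 0 of 17 for groups 9 to 13. Within groups 4 to 8 the counts were 1 of 5 for group 4, 2 of 6 for group 5, 3 of 4 for group 6, 0 of 2 for group 7 and 3 of 3 for group 8. By cluster, 6 of 11 probe sets were measured in cluster C, 2 of 10 in cluster D, 1 of 16 in cluster A and 0 of 11 in cluster B. In cluster C every gene from Hoxc4 to Hoxc8 had a measured probe set (4 of 4 genes), and Hoxc9, Hoxc10 and Hoxc13, which lie 5′ of them, had none. Hoxc4 is the first gene of cluster C, so the measured genes of that cluster start at its 3′ end. Levels of probe sets from different genes carry no order, and these counts carry no test.

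**Figure D1:**
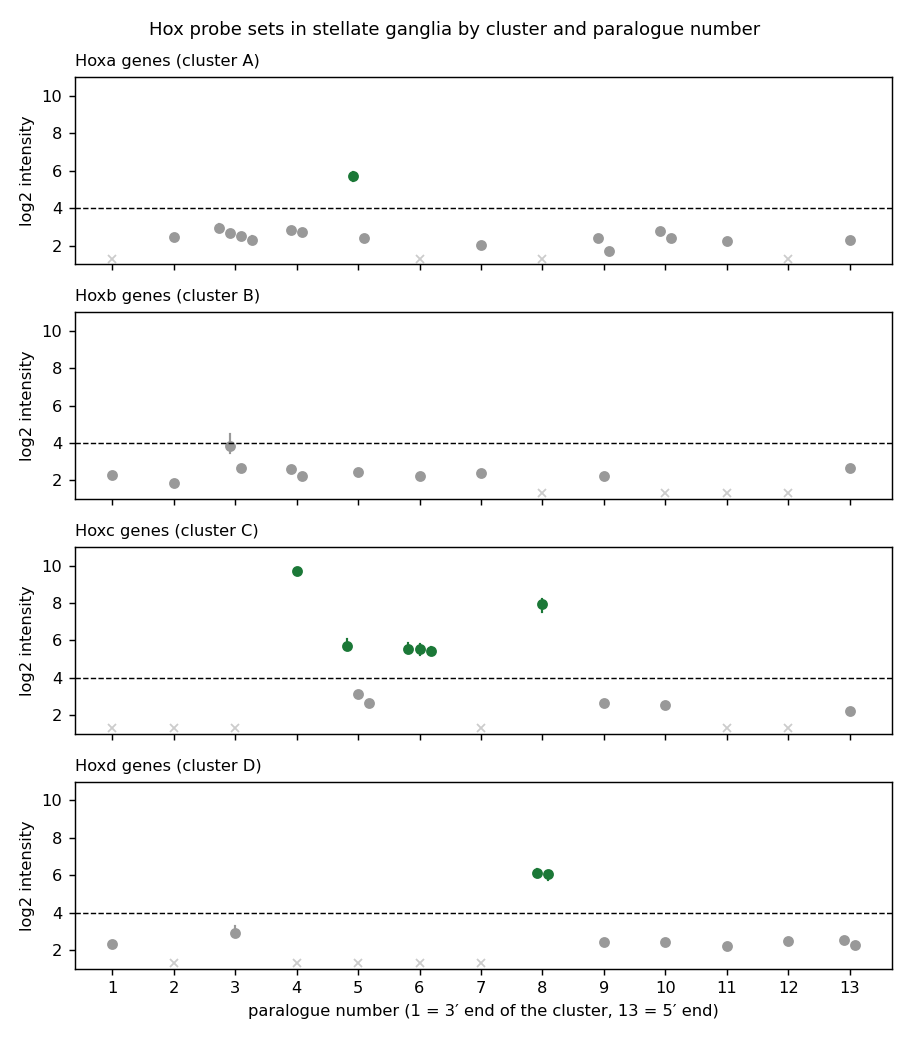
Each point is the mean log2 intensity of a Hox probe set over the 6 arrays and each line its lowest to highest array, by cluster (panels) and paralogue number (horizontal axis). Green points lie above the floor of 4 (dashed line), all of them at paralogue numbers 4 to 8, grey points lie under it, and crosses mark positions with no such gene in the cluster or no probe set with that symbol alone.

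The floor itself divides the sets, and the values on either side of it are given as a description. Just above it were the 3 sets for Hoxc6, with means of 5.43, 5.55 and 5.56. Just under it were a set each for Hoxb3 at 3.85, Hoxc5 at 3.15 and Hoxa3 at 2.91. Of the 39 Hox probe sets under the floor, 37 had a mean under 3.

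Hoxb3 was the sole gene under the floor with single arrays above it. Its set 1456229_at gave 3.54, 4.47 and 3.46 on TAC A, B and C, against 4.34, 3.64 and 3.65 on sham A, B and C. A single array of each group thus lay above the floor, and the groups overlapped. Its second set stayed between 2.63 and 2.76 on all arrays.

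Among the 5′ genes under the floor were Hoxc9, which marks chest-level motor neurons, with a mean of 2.65, Hoxd9 at 2.43, Hoxb9 at 2.24 and Hoxa9, with 2 sets at 2.42 and 1.71. Genes of groups 10 to 13, which pattern the lumbar, sacral and tail levels and the distal limb, had means of 2.20 to 2.79. Genes of groups 1 to 3, which pattern the hindbrain, had means of 1.83 to 2.91 apart from the Hoxb3 set at 3.85. In cluster B, Hoxb4 to Hoxb7 were at 2.23 to 2.60, while Hoxc4, Hoxc5 and Hoxc6 were measured in cluster C. A dim probe set can mean little transcript or poor probes, and 20 of the 27 genes with no measured set had only 1 set.

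Where a gene had several probe sets, they did not always give the same answer. All 3 sets of Hoxc6 and both sets of Hoxd8 were measured. For Hoxc5, set 1439885_at had a mean of 5.72, while the other 2 sets had means of 3.15 and 2.68. For Hoxa5, set 1443803_x_at had a mean of 5.74 and set 1448926_at a mean of 2.43. The ending _x_at marks probes that also match other transcripts, and in the RefSeq table the span of Hoxa5 lies inside that of Hoxa3, whose own 4 sets were all at 2.31 to 2.91. The level of Hoxa5 is therefore uncertain, and that of Hoxc5 rests on 1 of 3 sets. Hoxc4 and Hoxc8 had a single set each.

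Promoter sequences were in the RefSeq table for 22 Hox genes, among them 3 of the 6 measured ones. They are shown with Hoxd9, the unmeasured gene next to Hoxd8 on its 5′ side, because the edge between measured and unmeasured genes in cluster D falls between these 2. Each window runs from 250 bases before to 50 bases after the annotated start in GRCm38.p6. Capitals mark matches on either strand to CCAAT, the box bound by NF-Y.
Hoxc4, chr15:103034145-103034444, plus strand: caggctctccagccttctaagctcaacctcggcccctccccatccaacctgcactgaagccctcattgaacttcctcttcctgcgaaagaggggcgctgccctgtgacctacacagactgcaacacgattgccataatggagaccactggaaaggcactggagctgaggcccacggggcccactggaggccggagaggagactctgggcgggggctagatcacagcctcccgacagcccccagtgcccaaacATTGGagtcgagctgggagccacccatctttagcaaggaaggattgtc
Hoxa5, chr6:52204538-52204837, minus strand: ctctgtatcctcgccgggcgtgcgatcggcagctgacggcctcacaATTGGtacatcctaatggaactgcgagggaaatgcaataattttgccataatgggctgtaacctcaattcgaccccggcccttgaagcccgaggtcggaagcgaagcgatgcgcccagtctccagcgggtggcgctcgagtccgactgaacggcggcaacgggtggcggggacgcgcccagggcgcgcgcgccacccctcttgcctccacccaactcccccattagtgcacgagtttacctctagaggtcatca
Hoxd8, chr2:74704365-74704664, plus strand: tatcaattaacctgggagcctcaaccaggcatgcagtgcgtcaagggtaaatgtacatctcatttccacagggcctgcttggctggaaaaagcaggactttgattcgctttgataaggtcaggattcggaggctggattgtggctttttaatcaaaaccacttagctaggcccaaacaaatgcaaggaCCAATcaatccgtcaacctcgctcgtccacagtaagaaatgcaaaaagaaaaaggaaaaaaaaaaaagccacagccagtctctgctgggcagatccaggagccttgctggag
Hoxd9, chr2:74697513-74697812, plus strand: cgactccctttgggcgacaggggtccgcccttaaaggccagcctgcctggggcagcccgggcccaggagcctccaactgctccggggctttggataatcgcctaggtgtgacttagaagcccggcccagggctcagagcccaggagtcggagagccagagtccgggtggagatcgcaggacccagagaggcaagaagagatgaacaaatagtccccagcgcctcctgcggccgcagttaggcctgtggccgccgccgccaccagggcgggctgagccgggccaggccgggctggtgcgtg

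The windows of Hoxc4, Hoxa5 and Hoxd8 each held 1 match to CCAAT, and that of Hoxd9 held none. Among windows of other Hox genes 12 of 21 held a match (57.1%), as did 37.4% of the 32544 distinct promoter windows of the same length. The composite PBX-HOX motif TGATNNAT and the TATA box TATAAA, searched on both strands, had 0 matches in the 4 windows shown. They were found in 8.79% and 13.6% of all windows, and each in 4 of the 21 windows of other Hox genes. No matches overlapped in the windows shown. The number of CG dinucleotides was 29 for Hoxa5, 9 for Hoxc4, 6 for Hoxd8 and 20 for Hoxd9, against a median of 7 over all windows. These counts describe the letters of the windows and say nothing of binding.

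Pressure overload for 8 weeks left the measured Hox genes with no detectable difference between TAC and sham ganglia. Limma called 0 of the 9 measured Hox probe sets at an adjusted p under 0.05, and 0 of all 17550 probe sets, or 0%. At an unadjusted p under 0.05 there were also 0 of 9 Hox probe sets, against 9.08% of all tested. The 3 TAC and 3 sham values overlapped for each of the 9, while 17.9% of all tested probe sets had groups that did not overlap. Adjusted p-values of the 9 ran from 0.573 to 0.905. For 1 probe set, the smallest p that an exact permutation test allows with 3 mice per group is 0.1.

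Hoxc4, the first gene of cluster C at its 3′ end, gave 9.80, 9.53 and 9.65 on TAC A, B and C, against 9.78, 9.65 and 9.74 on sham A, B and C. It had the narrowest range of the 9, at 0.27 over the 6 arrays, with the groups on top of each other. The log2 difference was -0.07 (SE 0.10, 95% interval -0.30 to 0.16), so the interval reached from 0.813-fold to 1.12-fold. It was -0.14 without TAC A and -0.0030 without TAC B. Without TAC A the remaining TAC arrays lay just below all sham arrays, with TAC C at 9.649 and sham B at 9.650. In that setting 5538 of all 17550 tested probe sets had groups that did not overlap.

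Hoxc5, the next gene in the cluster, gave 5.62, 6.09 and 5.62 on TAC A, B and C, against 5.70, 5.63 and 5.64 on sham A, B and C. Only TAC B stood apart, and the other TAC arrays lay just under the sham arrays. The difference was 0.12 (SE 0.14, 95% interval -0.22 to 0.47), and without TAC B it was -0.04.

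For Hoxc6, a gene of forelimb-level patterning, set 1427361_at gave 5.49, 5.88 and 5.52 on TAC A, B and C, against 5.51, 5.66 and 5.31 on sham A, B and C. Set 1427362_x_at gave 5.59, 5.36 and 5.83 in TAC, against 5.72, 5.24 and 5.55 in sham ganglia, and set 1427454_at gave 5.38, 5.36 and 5.63, against 5.46, 5.38 and 5.36. The sets did not rank the arrays alike: TAC B was the highest array in the first and the second lowest in the other 2. Their differences were 0.14 (SE 0.14), 0.09 (SE 0.17) and 0.06 (SE 0.10), and each 95% interval held 0. The first ran from 0.013 without TAC B to 0.22 without sham B.

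Hoxc8, which helps pattern the ribs and the forelimb motor pools, varied most between mice among the 9 measured sets. It gave 8.15, 7.68 and 8.20 on TAC A, B and C, against 8.16, 7.50 and 8.10 on sham A, B and C. In each group the array B was the lowest, and the other arrays lay between 8.10 and 8.20. The means were 8.01 ± 0.29 in TAC and 7.92 ± 0.36 in sham ganglia (SD, n = 3 each). The difference of 0.09 (SE 0.22) had the widest 95% interval of the 9, from -0.45 to 0.63, or 0.732-fold to 1.54-fold. It was -0.12 without sham B and -0.01 without TAC C.

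Hoxd8, the paralogue of Hoxc8 in cluster D, showed the largest difference of the 9 in its set 1431099_at. That set gave 6.10, 6.36 and 6.14 on TAC A, B and C, against 6.10, 5.99 and 5.90 on sham A, B and C. TAC A lay just under sham A, so the groups overlapped, while the other TAC arrays lay above all sham arrays. The difference was 0.20 (SE 0.10, 95% interval -0.05 to 0.45), with an unadjusted p of 0.0971 and limma's adjusted p of 0.573, and it was 0.12 without TAC B. The second set, 1433638_s_at, gave 6.15, 6.13 and 6.12 in TAC, against 6.19, 5.75 and 6.18 in sham ganglia, and without sham B its difference of 0.10 was -0.05.

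Hoxa5, which in mice is needed for the lung and trachea, gave 5.72, 5.77 and 5.93 on TAC A, B and C, against 5.83, 5.45 and 5.72 on sham A, B and C. Sham B was the lowest array and the remaining values of the groups interleaved. The difference was 0.14 (SE 0.12, 95% interval -0.15 to 0.43), and it ran from 0.037 without sham B to 0.22 without sham A.

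**Figure D2:**
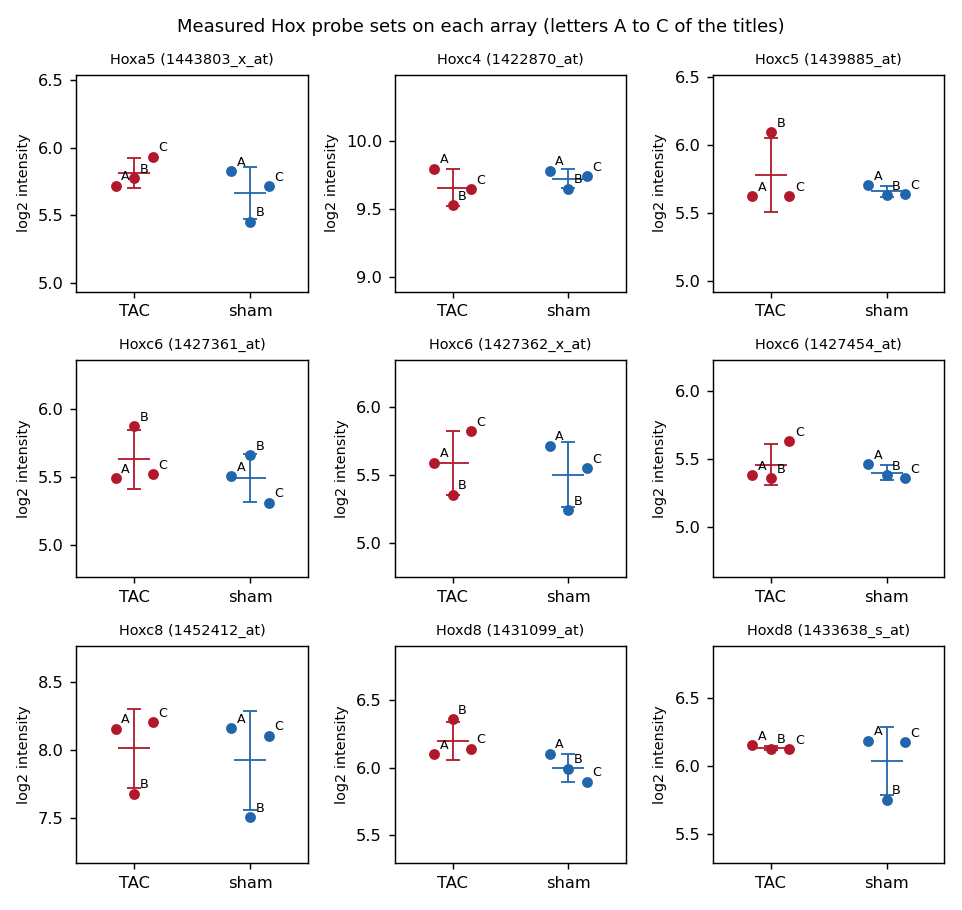
Log2 intensity of the 9 measured Hox probe sets on each array, with TAC (red) left of sham (blue), the letter of each array, and the group mean with its SD (n = 3). Every panel spans 1.6 log2 units, and in every panel the groups overlap.

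Mean values were higher in TAC ganglia for 8 of the 9 sets and lower for Hoxc4, beside 9840 higher of all 17550 tested probe sets. With 1 set per gene, 5 of 6 were higher. The median difference was 0.10, beside 0.03 over all 17550 probe sets, and 0.13 with 1 set per gene. The count of 8 fell to 7 after quantile normalization, to 5 without TAC C and to 5 without sham B. All 9 intervals held 0, and 8 of the 9 lay within a 1.5-fold change in either direction, with Hoxc8 the exception.

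**Figure D3:**
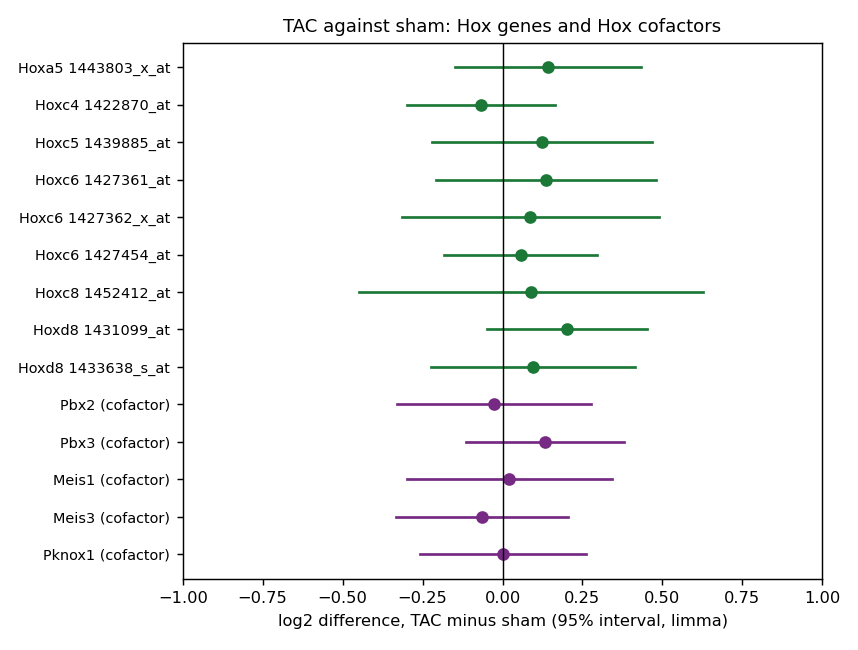
Log2 differences TAC minus sham with limma's 95% intervals for the 9 measured Hox probe sets (green) and the 5 measured cofactor genes (purple). Every interval crosses 0, and that of Hoxc8, from -0.45 to 0.63, is the widest of the Hox sets.

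The array sham B was the lowest of the 6 for 4 of the 9 sets, Hoxa5, Hoxc8, 1 set of Hoxc6 and 1 of Hoxd8. Sham C was the lowest for 3 sets and TAC A and TAC B for 1 set each, while over all tested probe sets sham B was the lowest array for 23.8% and sham C for 18.6%. TAC C was the highest array for 4 of the 9 and TAC B for 3, against 15.4% and 26.7% of all tested probe sets, in that order. The skeletal muscle marker list, of which 4 of 10 genes were measured, had a log2 of the summed linear intensity over all 10 genes of 6.73 to 8.09 in TAC and 6.44 to 10.38 in sham ganglia. It was lowest on sham B, at 6.44, and TAC B was at 6.76 and TAC C at 6.73. Hoxc8 was low on sham B and TAC B and high on TAC C. The muscle regulator Myod1 was under the floor. Brown fat markers, with 4 of 5 measured, were on the same scale at 8.56 to 9.55 in TAC and 8.70 to 10.52 in sham ganglia and were highest on sham C and TAC B. Fibroblast markers, with 7 of 10 measured, were at 12.85 to 13.31 in TAC and 13.03 to 13.09 in sham ganglia. Within that list the differences TAC minus sham went both ways, from -0.60 for Col1a1 to 0.26 for Dcn, with a median of -0.17. Limma called 0 of the 7. Satellite glia and Schwann cell markers, with 10 of 10 measured, had summed values of 14.92 on TAC B, 15.12 on TAC C and 15.21 to 15.27 on the other arrays. Their mean log2 was lowest on the 2 arrays where Hoxc8 was low, at 10.61 on TAC B and 10.76 on sham B. On the other arrays it was 10.80 to 10.90. The part of these cell types in the Hox values was not tested.

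The dim Hox probe sets gave a different picture from the measured ones. Of the 39 under the floor, 37 had lower means on TAC arrays, and for 33 all TAC values lay below all sham values. The differences were small, with a median of -0.05 and a median range over the 6 arrays of 0.08. The same was seen over all 27487 probe sets under the floor, of which 87.0% had lower means on TAC arrays, with a median difference of -0.04, and 71.6% had all TAC values below all sham values. Nothing about TAC was read from these dim sets.

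The TALE cofactors that bind DNA with Hox proteins were measured for 5 of 8 genes with a probe set, Pbx2, Pbx3, Meis1, Meis3 and Pknox1. Pbx4, Meis2 and Pknox2 lay under the floor, the highest of them at 2.76. None of the 5 passed limma's test, adjusted or unadjusted, with a median difference of 0.0014 over the list. Meis1 gave 8.97, 8.56 and 8.85 on TAC A, B and C, against 8.85, 8.62 and 8.84 on sham A, B and C. Pbx3 was at 0.13 (SE 0.10), Meis3 at -0.06, Pbx2 at -0.03, Meis1 at 0.02 and Pknox1 at 0.0014. As for the Hox genes themselves, differences between the groups were within the spread of the arrays.

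Of the chromatin regulators that keep Hox clusters silent or active, 24 of 26 genes with a probe set were measured, and limma called 0 of them. The list's median difference was 0.0020, beside 0.02 over the brightest probe sets of all 9955 measured genes. At an unadjusted p under 0.05, 1 was higher and 1 lower, Cbx7 and Phc2, a share near that of all measured genes, of which 872 of 9955 had such a p. Cbx7, a chromobox reader of the repressive Polycomb histone mark, gave 5.92, 6.08 and 6.03 on TAC A, B and C, against 5.51, 5.60 and 5.50 on sham A, B and C. Every TAC array lay above every sham array. The difference was 0.47 (SE 0.08, 95% interval 0.28 to 0.67), or 1.39-fold, with limma's unadjusted p of 0.000776 and an adjusted p of 0.512. The other 2 sets of Cbx7 lay under the floor.

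Phc2, a polyhomeotic subunit of the same kind of complex, gave 8.66, 8.67 and 8.78 on TAC A, B and C, against 8.96, 8.90 and 9.05 on sham A, B and C, again without overlap. Its difference was -0.26 (SE 0.08) with limma's adjusted p of 0.516, while its second set was at 0.13. Next by p were the demethylase Kdm6a at 0.26 and the acetyltransferase Kat6a at -0.19, whose groups overlapped. The methyltransferases of the Polycomb mark, Ezh1 at 0.10 and Ezh2 at -0.0018, and the Trithorax methyltransferase Kmt2a at 0.0058, did not pass the test.

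Among the signals that set up Hox expression in the embryo, 4 of 15 genes with a probe set were measured, and limma called 0. These were the retinoic acid receptor genes Rarb, Rarg and Rxra and the orphan receptor gene Nr6a1. Rarb, itself a target of retinoic acid, gave 4.28, 4.50 and 4.34 on TAC A, B and C, against 4.23, 4.23 and 4.22 on sham A, B and C. The groups did not overlap and all values lay near the floor, and the difference was 0.15 (SE 0.08) with an adjusted p of 0.600. Rarg differed by 0.04, Rxra by 0.0074 and Nr6a1 by 0.0034. The caudal homeobox genes Cdx1, Cdx2 and Cdx4, direct activators of Hox genes, lay under the floor.

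The lists of head, forebrain and limb genes were under the floor as a whole. None of 11 head and forebrain genes with a probe set was measured, Otx2 and Emx2 among them, the highest being Dlx2 at 3.73. None of the 3 limb genes Tbx5, Tbx4 and Pitx1 was measured, with means up to 2.46. Here too a dim probe set can mean little transcript or poor probes. Whether these genes were dim because of body level or tissue was not tested.

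Genes that lie inside or beside the Hox clusters were measured for 8 of 13 with a probe set. At the outer ends of the clusters, the homeobox genes Evx1 and Evx2, which follow the 5′ end of clusters A and D, were under the floor. The neighbour genes Skap2, Hibadh, Tax1bp1, Calcoco1, Smug1, Cbx5, Mtx2 and Lnpk were measured. Limma called 0 of the 8. Skap2, an adaptor protein gene beside cluster A, gave 7.51, 7.33 and 7.56 in TAC, against 7.14, 7.10 and 7.36 in sham ganglia, and the groups overlapped. Its difference was 0.27 (SE 0.11) with an unadjusted p of 0.0471 and an adjusted p of 0.547, while its other 2 sets were at -0.0024 and -0.05. Calcoco1 was at 0.18, Tax1bp1 at 0.12 and Cbx5 at 0.04.

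**Figure D4:**
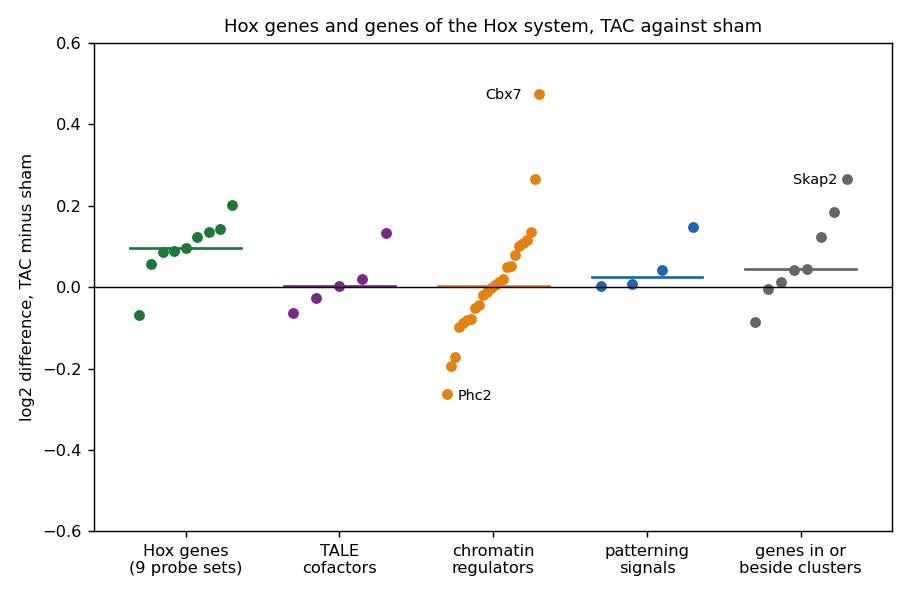
Log2 differences TAC minus sham for the 9 measured Hox probe sets and the measured genes of 4 related lists, with each list's median as a line. The 3 genes with an unadjusted p under 0.05, Cbx7, Skap2 and Phc2, are named, and none of them passed after adjustment over all probe sets.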

How the data were processed

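Probe set intensities on a linear scale were deposited by the authors, made with GCRMA per the submitters' processing notes. For GCRMA, no version or settings are given in the sources used here. Values were converted to log2 without a pseudocount. The 64 control probe sets were left out, and 17550 of 45037 others had a mean log2 of at least 4 and were tested. Symbols came from GEO's platform annotation, and all 48 Hox probe sets matched the RefSeq gene table (GRCm38.p6) by gene identifier. Another 3 probe sets carried 2 Hox symbols each and were not members.

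Differences TAC minus sham were tested with limma 3.58.1 in R 4.3.3, two-sided, with Benjamini-Hochberg adjustment over all tested probe sets and a threshold of 0.05. The fit was tested on simulated data. Lists used the brightest probe set per gene. Members and lists were chosen with earlier results of these data known. Named were all measured Hox probe sets, those nearest the floor and up to 4 genes of smallest p per list. Other genes were named after their values were seen. At most 8 values were identical between any 2 arrays. The arrays were not treated as pairs by letter in the main fit. Correlations of deviations were 0.084, -0.003 and -0.166 for A, B and C, and -0.133 to 0.139 between different letters. With 3 arrays per group these values cannot exclude a pairing. Each array holds 1 animal, per the labels' protocols, and precision is limited by having 3 arrays per group. Figures used matplotlib 3.10.9.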

Additional observations from a re-analysis of the deposited data

How the results depend on the processing

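Under the alternatives tried, limma called 0 of the measured Hox probe sets in each, with adjusted p of at least 0.238. Over all probe sets the count was 0 to 1 with 1 array left out (1 without TAC B and 1 without TAC C). With no floor, 48 Hox probe sets entered. Of these, 10 had an unadjusted limma p under 0.05, all lower on TAC arrays, and 33 had groups that did not overlap. These were dim sets. Over all 45037 probe sets in that setting, 7642 had such a p and 22921 had groups that did not overlap. Measured Hox groups that did not overlap numbered 1 after quantile normalization, 1 with array medians set equal (Hoxd8 in both), 1 without sham C and TAC B, and 0 to 2 with 1 array left out. Over all 17550 tested probe sets the counts in these settings were 3069, 3062, 6659 and 4415 to 5538, in that order. With a floor of 6 the count of measured Hox probe sets was 4, with 9 at a floor of 5, and 6 without sets ending in _s_at, _x_at or _a_at. The median difference was 0.04 to 0.17 with 1 array left out, and 0.05 after quantile normalization, beside -0.01 over all probe sets. The letter of the titles as a replicate block left 0 calls, and the median stayed at 0.10. Of 130 single values, 11 had the opposite sign. Without sham C and TAC B these were Hoxc4 at 0.0060, Hoxc5 at -0.046 and Hoxc6 1427361_at at -0.078, and after quantile normalization Hoxc6 1427454_at at -0.012. With 1 array left out, Hoxc8 ran from -0.12 to 0.26, Hoxc5 from -0.035 to 0.20, Hoxc6 1427362_x_at from -0.043 to 0.20, Hoxc6 1427454_at from -0.030 to 0.10 and Hoxd8 1433638_s_at from -0.048 to 0.17. The cause was not tested.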

Other observations

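An antisense transcript of cluster D was measured although no Hoxd gene of low paralogue number was. A probe set of Hoxd3os1, the long noncoding RNA opposite Hoxd3, gave 4.95, 4.46 and 5.0 on TAC A, B and C, against 4.67, 4.58 and 4.53 on sham A, B and C. The groups overlapped, with a difference of 0.21 (SE 0.15, limma adjusted p = 0.661). The second Hoxd3os1 set had a mean of 2.37, and the Hoxd3 set one of 2.91. Both sets annotated to Hoxd4 and Hoxd3 together, at 3.41 and 2.20, and the set annotated to Hoxb8 and Hoxb7 together, at 2.06, lay under the floor. The antisense genes Hoxa11os and Hoxb5os did as well, with means of 2.24 to 2.82. These sets were chosen after their values were seen.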
